A study of Homo sapiens with 6 samples.

Results

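The subject here is 10 genes that encode feedback regulators of the ERK pathway, the MAP kinase cascade that runs from receptor tyrosine kinases through RAS, RAF and MEK to ERK. They were chosen by symbol, as named members of 4 gene families, and not by their values, though with earlier results of these data known. The 10 are the phosphatases DUSP4, DUSP5 and DUSP6, the Sprouty proteins SPRY1, SPRY2 and SPRY4, the Sprouty-related proteins SPRED1 and SPRED2, and the ETS transcription factors ETV4 and ETV5. All 10 were found among the 31785 rows of the deposited expression table, and all 10 were among the 13558 rows that passed the filter on low values.

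RNA sequencing had been run on total RNA of D283 Med, an established line from a childhood medulloblastoma, a tumour of the cerebellum. There were 3 libraries of wild-type cells (WT) and 3 of cells labelled as a Musashi-1 knockdown. Musashi-1, gene MSI1, is an RNA-binding protein of neural progenitors. The labels name no knockdown reagent, no control construct and no clone, and nothing says that the libraries came from separate cultures. The p-values thus cover only the spread of these libraries, which may be technical. The knockdown columns were headed KD1 to KD3. The columns headed VV1 to VV3 were taken as WT because no other group was left for them.

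When a growth factor activates its receptor, ERK enters the nucleus and switches on transcription factors, and among the genes that follow are brakes on the cascade itself. DUSP4 and DUSP5 remove phosphate from ERK in the nucleus, and DUSP6 does so in the cytoplasm. Sprouty proteins act between receptor and RAF, and SPRED proteins bring the RAS inhibitor neurofibromin to the membrane. ETV4 and ETV5 are effectors of FGF signalling whose own transcription rises with ERK activity, so all these mRNAs are widely read as a gauge of the pathway.

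Musashi-1 binds short motifs with a UAG core in 3′ UTRs, where it is known to alter translation and stability. The motif searched was G or A, then 1 to 3 T, then AGT, on the sense strand, with overlapping matches counted. It was read in the GENCODE 29 transcript with the longest coding sequence of each gene. The 3′ UTRs of the 10 members held 55 matches in 24116 bases, 2.28 per kilobase, beside 2.03 per kilobase over 18835 coding genes. SPRY2 had the densest matches, 4 in 782 bases, followed by DUSP5 with 5 in 1118 bases. SPRED1 had the most, 18 in 5585 bases. ETV4 had none in 675 bases. DUSP6 had 3 in 2022 bases, 1.48 per kilobase. SPRED2, above WT in every knockdown library, had 6 in 2650 bases, 2.26 per kilobase. Whether matches go with the members' differences was not tested. The matches of SPRY2 and DUSP6, the 2 genes with the lowest knockdown means in percent of WT, are shown with the motif in capitals. All are on the minus strand of GRCh38, and a match is a description of letters, not a binding site.
SPRY2 chr13:80336630-80336657: agaaaggtgggATAGTctttgctgtttg
SPRY2 chr13:80336458-80336485: tttgtttgtgaATAGTacttgcaaaact
SPRY2 chr13:80336138-80336165: ttcaacatattGTTTAGTgtaaagaata
SPRY2 chr13:80336036-80336063: atgaggatgtgATAGTtgctgcaaatga
DUSP6 chr12:89348446-89348473: tttctctttatGTAGTttgactatgcct
DUSP6 chr12:89347954-89347981: gacttgtaggcATAGTagggcaaggttc
DUSP6 chr12:89347813-89347840: ctcttatgagtATAGTtccggcttaaga

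Near the start sites, 4 motifs of factors that act with ERK were searched on both strands. These were the octamer of CIC, a repressor that ERK inactivates (TNAATGNA, in which the first N is C or G and the second is A or G), an ETS site (CCGGAAGT), an AP-1 site (TGACTCA), to which FOS and JUN bind, and the cyclic AMP response element (TGACGTCA). RefSeq promoter windows of 300 bases on GRCh38.p14 matched 6 members (DUSP6, SPRY1, SPRY2, SPRY4, SPRED1 and SPRED2) with 10 windows. DUSP4, DUSP5, ETV4 and ETV5 had no entry. The window of DUSP6 held 2 CIC octamers, one beginning 24 bases before the start and the other 1 base after it. A single octamer or more occurred in 3.77% of all 35116 windows, and 2 or more in 0.327%. The inner start of SPRED2 held an AP-1 site, as did 4.95% of all windows. No member window held the ETS site or the cyclic AMP element, present in 4.14% and 1.85% of windows. The pieces with a match are shown on the gene's strand, which is minus for both, with the motif in capitals. They are all the matches found in the 10 member windows, and their part in the members' values was not tested.
DUSP6 chr12:89352508-89352535: ggagaatgtaTCCATTGAgacgctcgct
DUSP6 chr12:89352483-89352510: gctgtttgtaTCCATTGAggagctgcct
SPRED2 chr2:65366765-65366884: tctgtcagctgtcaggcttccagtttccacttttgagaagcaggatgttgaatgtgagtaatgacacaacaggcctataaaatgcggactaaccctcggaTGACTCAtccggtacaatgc

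The table gave back 17299671 to 38790342 reads for the WT libraries, against 18895997 to 24442276 for the knockdown ones. VV1 was the shallowest of the 6 libraries. MSI1 itself averaged 1512 ± 116 normalised reads in WT against 1288 ± 94.3 in knockdown (SD, n = 3 each), 85.2% of WT, and did not pass the test (difference −0.21, SE 0.12, limma adjusted p = 0.304), so the direction of each comparison rests on the labels. Markers of the tumour were present (OTX2, NEUROD1, ZIC1 and SOX4), while EOMES and BARHL1 were at 14.6 and 1.02 normalised reads in WT. Astrocyte and leukocyte markers summed to at most 17.6 normalised reads in any library. The 5 fibroblast markers summed to 305 to 337 in WT and 278 to 332 in knockdown, and the 4 endothelial markers to 162 to 251 and 159.9 to 313. The part of these markers in the members' values was not tested.

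None of the 10 feedback regulators differed between the groups at the threshold. On the deposited log2-like scale the means of 9 were below WT in knockdown and that of SPRED2 was above. Of 13558 tested genes, 6642 had lower means on this scale. DUSP5 was among the 9 by −0.003 only, and its mean normalised reads were 708 in knockdown against 701 in WT. The members' median difference was −0.19, against 0.0061 over all tested genes. The members' median was −0.35 without VV1, −0.38 without VV2 and −0.12 without VV3, and −0.13 over the members left by a filter of 2 above the lowest value. No member passed limma with adjustment over all genes, where 4.1% of 13558 genes passed, and none passed with limma voom on the recovered reads, where 3.79% did. At an unadjusted limma p under 0.05 there were 5 members, namely SPRY2, ETV5, DUSP6 and SPRED1 with lower means and SPRED2 with a higher one, beside 22.0% of all genes. The WT and knockdown libraries did not overlap for 2 members, SPRED1 and SPRED2, beside 27.8% of all genes. The first count lies above the share of all genes and the second below it. In bulk RNA, fewer cells of a type and less RNA per cell cannot be told apart.

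**Figure D1:**
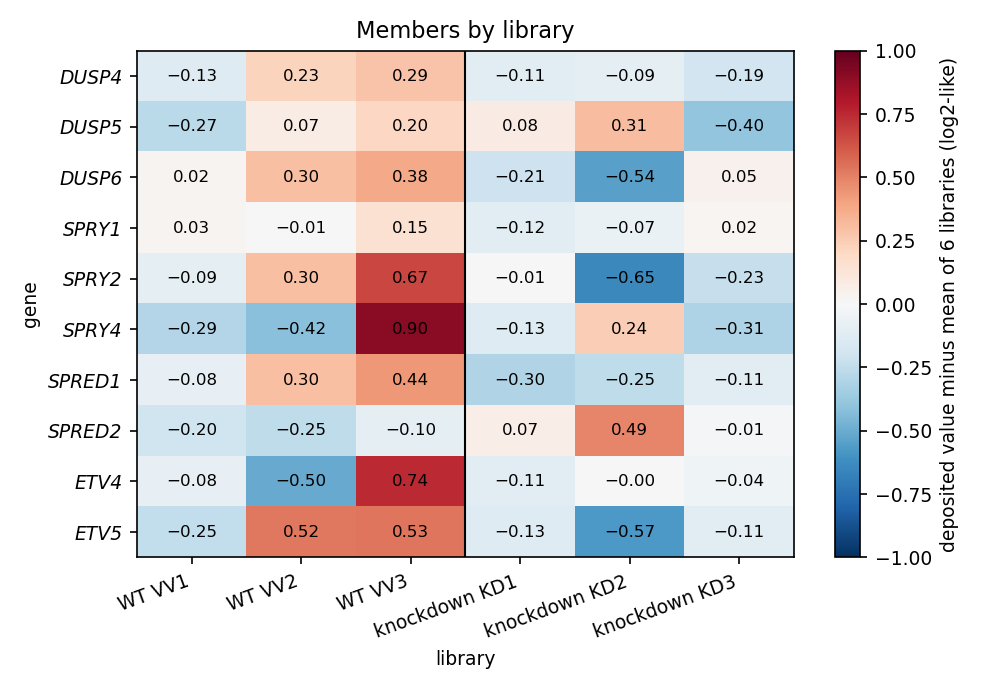
Deposited value of each member minus its mean over the 6 libraries (colour and printed number, log2-like units), with genes as rows, libraries as columns and a line between WT and knockdown. VV3 was the highest WT library in all 10 rows, and KD2 held both the lowest values of DUSP6, SPRY2 and ETV5 and the highest of SPRED2.

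The WT libraries differed among themselves in the members. VV3 had the highest WT value for all 10 members. VV1 had the lowest for 6, and VV2 the lowest for the other 4. The shares of all tested genes with this order are not given here, and whether whole libraries shifted was not tested. Relative to the WT mean, the median member stood at 0.21 in VV3, 0.04 in VV2 and −0.27 in VV1, and at −0.22, −0.17 and −0.32 in KD1, KD2 and KD3. The median of VV1 thus lay within the range of the knockdown libraries. Without VV1, 2 members passed limma, ETV5 (difference −0.80, adjusted p = 0.0317) and SPRED1 (−0.59, adjusted p = 0.0451), where 5.35% of all genes passed. No member passed without VV2, VV3, KD1, KD2 or KD3, where 1.5%, 3.67%, 0.413%, 0.929% and 0.679% of all genes did. Over 17 alternative fits the adjusted p of ETV5 ranged from 0.0317 to 0.403 and that of SPRED1 from 0.0451 to 0.344.

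Levels of different genes were compared as normalised reads per kilobase of merged exons. In WT, SPRED2 was the most abundant member at 520.0 ± 29.6 (SD, n = 3), above all other members in every library. DUSP5 (268 ± 50.4), SPRY2 (235 ± 70.1), DUSP4 (182 ± 29.3), ETV5 (129 ± 40.9), SPRY4 (69.4 ± 46.3), ETV4 (57.8 ± 37.6) and SPRY1 (40.5 ± 3.60) followed, and the WT ranges of each neighbouring pair in this order overlapped. SPRED1 (28.96 ± 7.11) lay below SPRY1 without overlap, and DUSP6 (20.7 ± 4.69) was lowest, overlapping SPRED1. On this scale SPRED2 stood at percentile 83.8 of the tested genes and DUSP6 at percentile 11.9.

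**Figure D2:**
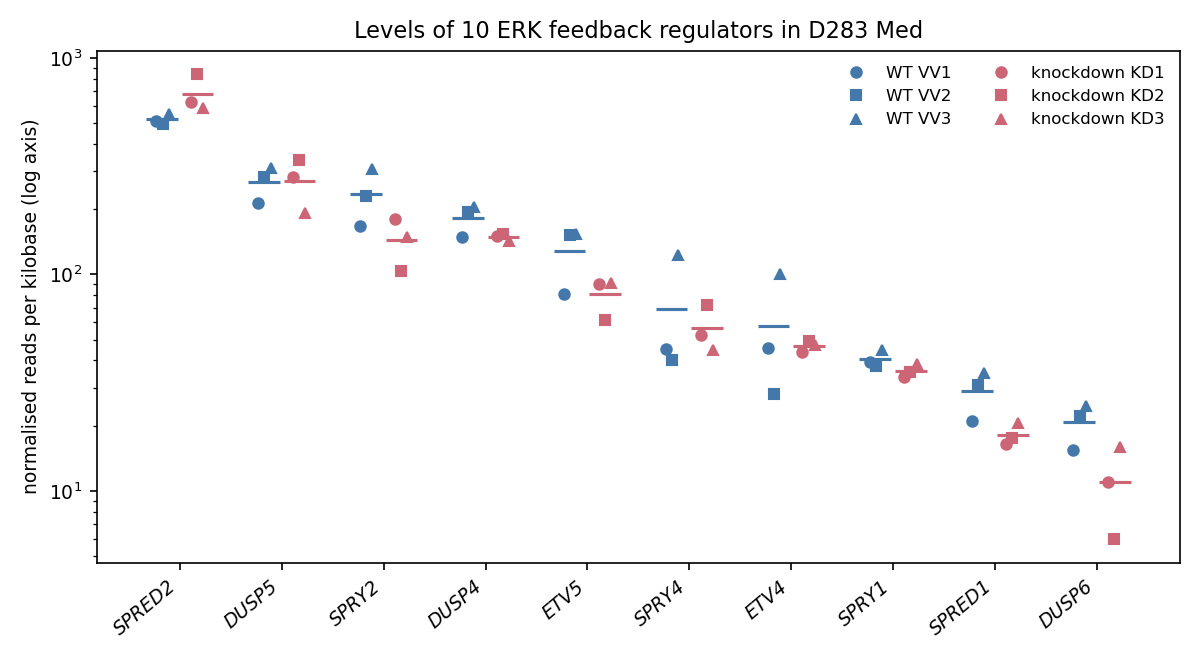
Normalised reads per kilobase of merged exons (log axis) for the 10 members, ordered by WT mean. Points are libraries (blue WT, red knockdown, one symbol per column number) and bars are group means. SPRED2 stands above the other members in every library, and SPRY4 and ETV4 each have one high WT point, VV3.

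Among the phosphatases, which act on ERK itself, DUSP6 (chromosome 12, 89347232 to 89353271, minus strand, GENCODE 29 on GRCh38 as for all genes here) had 71.7, 103 and 114 normalised reads in VV1, VV2 and VV3 and 50.6, 27.7 and 74.0 in KD1, KD2 and KD3. KD3 lay above VV1, so the groups overlapped. The means were 96.0 ± 21.7 and 50.8 ± 23.2 (SD, n = 3 each), which put knockdown at 52.9% of WT. The difference was −0.47 with a 95% interval of −0.85 to −0.09 (limma adjusted p = 0.151). Only 22 to 163 reads per library lay on DUSP6, and the deposited scale understates differences of such weak genes. With log2 of normalised reads plus 1, the difference was −0.99.

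DUSP4 (chromosome 8, 29333064 to 29350668, minus strand) stood at 1081, 1411 and 1478 normalised reads in VV1, VV2 and VV3, and at 1097, 1112 and 1032 in KD1, KD2 and KD3. The knockdown libraries were close together and overlapped VV1 alone. The difference was −0.26 (95% interval −0.55 to 0.04, limma adjusted p = 0.283). DUSP5 (chromosome 10, 110497838 to 110511544, plus strand) had 556, 734 and 814 in WT and 738, 885 and 502 in knockdown. KD3 was the lowest and KD2 the highest of all 6, and the means of 701 ± 132 and 708 ± 193 (SD, n = 3) lay together. Its interval, −0.42 to 0.42, leaves room for a change of that size in either direction.

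Among the Sprouty genes, SPRY2 (chromosome 13, 80335976 to 80340951, minus strand) had the largest difference of all members on the deposited scale, whereas with log2 of normalised reads plus 1 it was at −0.70 and DUSP6 at −0.99. It had 509.5, 699 and 935 normalised reads in WT and 545, 314 and 454 in knockdown. KD1 exceeded VV1, and the other 2 knockdown libraries lay below every WT library. The means were 715 ± 213 and 438 ± 116 (SD, n = 3), 61.3% of WT, with a difference of −0.59 (95% interval −1.06 to −0.12, limma adjusted p = 0.142).

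SPRY4 (chromosome 5, 142310427 to 142326455, minus strand) had 297, 264 and 806 normalised reads in WT and 343, 474 and 293 in knockdown. VV3 alone was high, VV1 lay within the knockdown range and VV2 below it. The difference was −0.13 (95% interval −0.80 to 0.54, limma adjusted p = 0.844). It turned to 0.29 without VV3 (adjusted p = 0.369, range over 17 alternatives 0.369 to 0.995). SPRY4-AS1, an antisense RNA that overlaps the gene, had 7.51 to 22.6 normalised reads per library, and whether the counting used strand is not stated in the sources at hand. SPRY1 (chromosome 4, 123396795 to 123403760, plus strand) was the steadiest member. It had 155, 149 and 177 in WT and 133, 139.6 and 153 in knockdown, overlapping by KD3 alone, with a difference of −0.11 (95% interval −0.39 to 0.16, limma adjusted p = 0.642).

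The groups did not overlap for 2 of the 10 members, SPRED1 and SPRED2, beside 27.8% of all tested genes. These 2 lay in opposite directions. SPRED1 (chromosome 15, 38252326 to 38357249, plus strand) had 174, 255 and 289 normalised reads in WT and 137, 145 and 169.5 in knockdown. All knockdown libraries were below all WT libraries, though KD3 was close to VV1. The means were 239 ± 58.8 and 150.3 ± 17.2 (SD, n = 3), 62.8% of WT (difference −0.44, 95% interval −0.79 to −0.09, limma adjusted p = 0.140). SPRED2 (chromosome 2, 65310851 to 65432637, minus strand) had 2644, 2549 and 2847 in WT and 3213, 4342 and 3032 in knockdown. All knockdown libraries were above all WT libraries, with KD2 far above KD1 and KD3. The means were 2679.9 ± 152 and 3529 ± 709.9 (SD, n = 3), 132% of WT (difference 0.37, 95% interval 0.05 to 0.68, limma adjusted p = 0.170). Without KD2 the difference of SPRED2 was 0.21.

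Of the ETS factors, ETV5 (chromosome 3, 186046308 to 186110318, minus strand) had 473, 879.8 and 887 normalised reads in WT and 523, 358 and 529 in knockdown. VV1 lay inside the knockdown range, and VV2 and VV3 lay well above it. The means were 747 ± 237 and 470.2 ± 96.9 (SD, n = 3), 63.0% of WT (difference −0.54, 95% interval −1.02 to −0.06, limma adjusted p = 0.180). ETV4 (chromosome 17, 43527844 to 43579620, minus strand) had 164, 101 and 361 in WT and 158, 177 and 171 in knockdown. VV2 was the lowest and VV3 the highest of all 6, with the knockdown libraries between them. The difference was −0.11 (95% interval −0.67 to 0.46, limma adjusted p = 0.848), and without VV3 it was 0.24 (adjusted p = 0.419, range over 17 alternatives 0.369 to 0.933).

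The 578 tested genes of chromosome 17 beyond 27 megabases, where ETV4 lies, had a median difference of −0.33, and 514 of them were lower in knockdown. DHX8, which overlaps ETV4 on the other strand, had 3778 to 4469 normalised reads in WT and 2482 to 2606 in knockdown. The part of either in the value of ETV4 was not tested.

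**Figure D3:**
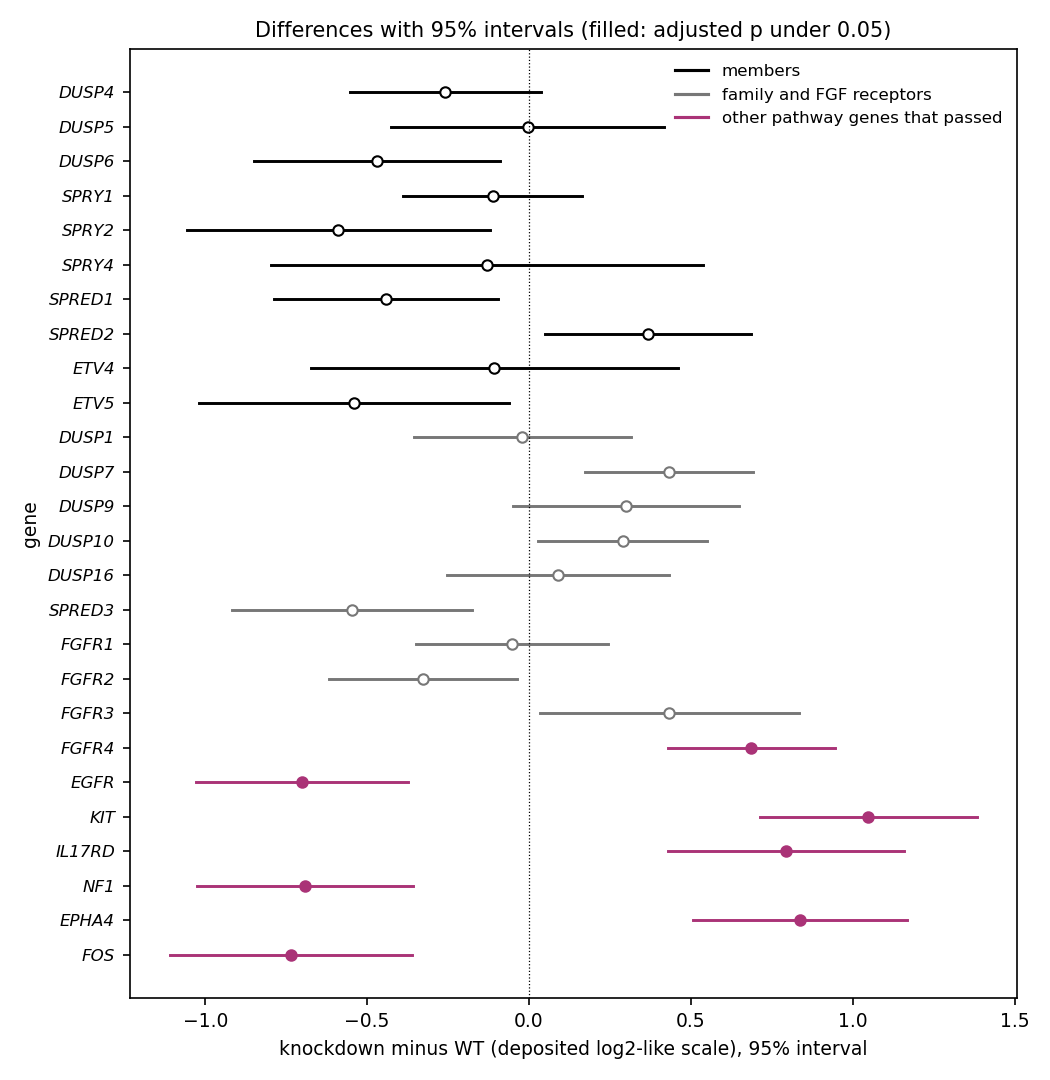
Knockdown minus WT on the deposited log2-like scale (points) with the 95% interval of the limma fit (bars), for the 10 members (black), their families and FGF receptors (grey) and the other pathway genes that passed (purple). Filled points passed at an adjusted p under 0.05, and no black point is filled.

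By pattern over the 6 libraries on the deposited scale, the members nearest to DUSP6 were SPRED1, ETV5 and SPRY2. Their root mean square distances between centred values were 0.15, 0.17 and 0.19. That scale understates differences of weak genes such as DUSP6, and the order on another scale is not given here. SPRED2 was the furthest at 0.54. Among the other tested genes that have a symbol, the 3 nearest were TRIM53AP, AMIGO1 and CNKSR3, at 0.068, 0.068 and 0.069. Like DUSP6 these 3 had their lowest value in KD2, which follows from choosing them by likeness to it. None of the 3 passed the test (limma adjusted p = 0.128, 0.165 and 0.183). How many tested genes lay as near to DUSP6 as SPRED1, ETV5 and SPRY2 is not given here.

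Relatives outside the 10 did not pass either. Of 10 further phosphatase, Sprouty, SPRED and ETS genes, 9 were in the table and 6 were tested, and none passed limma. DUSP7, a cytoplasmic ERK phosphatase like DUSP6, had 1561, 1748 and 1404 normalised reads in WT and 2179.7, 2249.7 and 2026 in knockdown. Its groups did not overlap and its difference was 0.43 (limma adjusted p = 0.0701). DUSP9, another ERK phosphatase, had a difference of 0.30, and DUSP10 and DUSP16, which act mainly on JNK and p38, had 0.29 and 0.09. DUSP1, a nuclear phosphatase of ERK, JNK and p38, was at −0.02. SPRED3 had 41.0, 70.6 and 77.5 in WT and 29.3, 32.7 and 10.7 in knockdown, a difference of −0.55 without overlap (limma adjusted p = 0.0960). DUSP2, DUSP8 and ETV1 were below the filter, and SPRY3 was not analysed here.

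In the pathway above and below the feedback genes, 102 genes of 7 lists and the family list were tested, and 4 rose and 3 fell, where 1.78% of all genes rose and 2.32% fell. At the receptors, 3 of 16 rose and 1 fell. KIT, the stem cell factor receptor, rose 2.77-fold from 133 ± 35.5 to 368 ± 35.3 normalised reads (SD, n = 3; limma adjusted p = 0.00805). FGFR4 rose 1.68-fold, from 897 ± 88.5 to 1505 ± 67.6 (limma adjusted p = 0.0148). IL17RD, also called SEF, a membrane protein that is itself a feedback inhibitor of FGF signalling, rose 1.90-fold from 383 ± 95.8 to 728 ± 79.7 (limma adjusted p = 0.0308). It had 274, 453 and 421 in WT and 648, 731 and 807 in knockdown, without overlap. EGFR fell 2.48-fold, from 148 ± 37.7 to 59.7 ± 0.67 (limma adjusted p = 0.0330). The other FGF receptors did not pass, with differences of −0.05 for FGFR1, −0.33 for FGFR2 and 0.43 for FGFR3.

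Of 8 tested genes in the ligand list none passed. The largest differences were −0.57 for KITLG, the ligand of KIT, 0.38 for PDGFB and −0.31 for FGF13. FGF13 belongs to the FGF family by name but is not a secreted ligand of these receptors. Of 15 adaptors and RAS genes none passed. GAB1, a docking protein of activated receptors, was at −0.84 (limma adjusted p = 0.0538), SHC2 at −0.49, and PTPN11, the phosphatase SHP2 that relays receptor signals to RAS, at −0.41. Of 13 RAF, MEK and ERK genes with their scaffolds none passed and 11 had lower means, the largest differences being −0.35 for the scaffold IQGAP1, 0.34 for MAPK3, which encodes ERK1, and −0.26 for BRAF.

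Of 14 other inhibitors 1 fell and none rose. NF1, neurofibromin, the RAS inhibitor that SPRED proteins bind, was at 6054 ± 1112 normalised reads in WT and fell 1.65-fold to 3676 ± 379 (SD, n = 3; difference −0.69, limma adjusted p = 0.0354). NF1 lies at 31094927 to 31382116 on chromosome 17, within the stretch whose tested genes had a median of −0.33, and the part of that stretch in its value was not tested. PEBP1, the RAF kinase inhibitor protein, was at 0.39 and CBL, which tags receptors for degradation, at −0.34. Of 16 effector kinases and ETS or CIC factors none passed. RPS6KA1, the ERK-activated kinase RSK1, was at 0.37, MKNK2 at −0.28 and COP1, part of the ubiquitin ligase that degrades ETV proteins, at 0.28. CIC, named after its value was seen because its octamer occurs in DUSP6, was at −0.05 (limma adjusted p = 0.861).

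Among 14 tested output genes of ERK other than the members, 1 rose and 1 fell, with a median of 0.18. That median was 0.09 without VV1, 0.12 without KD2 and −0.0095 with no filter on low values. EPHA4, an ephrin receptor, rose 2.25-fold from 164 ± 14.2 to 370.4 ± 82.3 normalised reads (SD, n = 3; limma adjusted p = 0.0172). FOS, the immediate early partner of JUN at AP-1 sites, fell 1.78-fold from 1641 ± 463 to 922 ± 54.8 (limma adjusted p = 0.0419), and like the members its highest WT library was VV3. PHLDA1, another common gauge of ERK activity, had 1712, 2507 and 2931 in WT and 1394, 1612 and 1617 in knockdown, again lowest in VV1 among WT (difference −0.57, limma adjusted p = 0.0982). CCND1, IER3, FOSL1, VGF, TNC and CXCL8 were below the filter.

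KIT passed in each of 17 alternative fits (limma adjusted p = 0.000932 to 0.0488). Each of the other 6 calls was lost in some alternatives. EPHA4 missed the threshold without KD1 or KD3 (limma adjusted p = 0.0839 and 0.0602), FGFR4 without KD1, KD2 or KD3 (0.0839, 0.0531 and 0.0662) and IL17RD likewise (0.0875, 0.0938 and 0.122). Without KD1, KD2 or KD3, EGFR had limma adjusted p = 0.126, 0.0938 and 0.115, FOS 0.144, 0.103 and 0.146, and NF1 0.163, 0.0807 and 0.115. EGFR also missed it without VV1 (limma adjusted p = 0.0566) and VV2 (0.0874), FOS without VV2 (0.0710), and NF1 without VV2 (0.0856) and VV3 (0.0608). NF1 missed it with quantile normalisation too (limma adjusted p = 0.0543). EGFR was below the stricter filter and had 16 alternatives. The lowest limma adjusted p over the alternatives was 0.00487 for EPHA4, 0.00335 for FGFR4, 0.00836 for IL17RD, 0.00799 for EGFR, 0.00862 for FOS and 0.00717 for NF1.

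**Figure D4:**
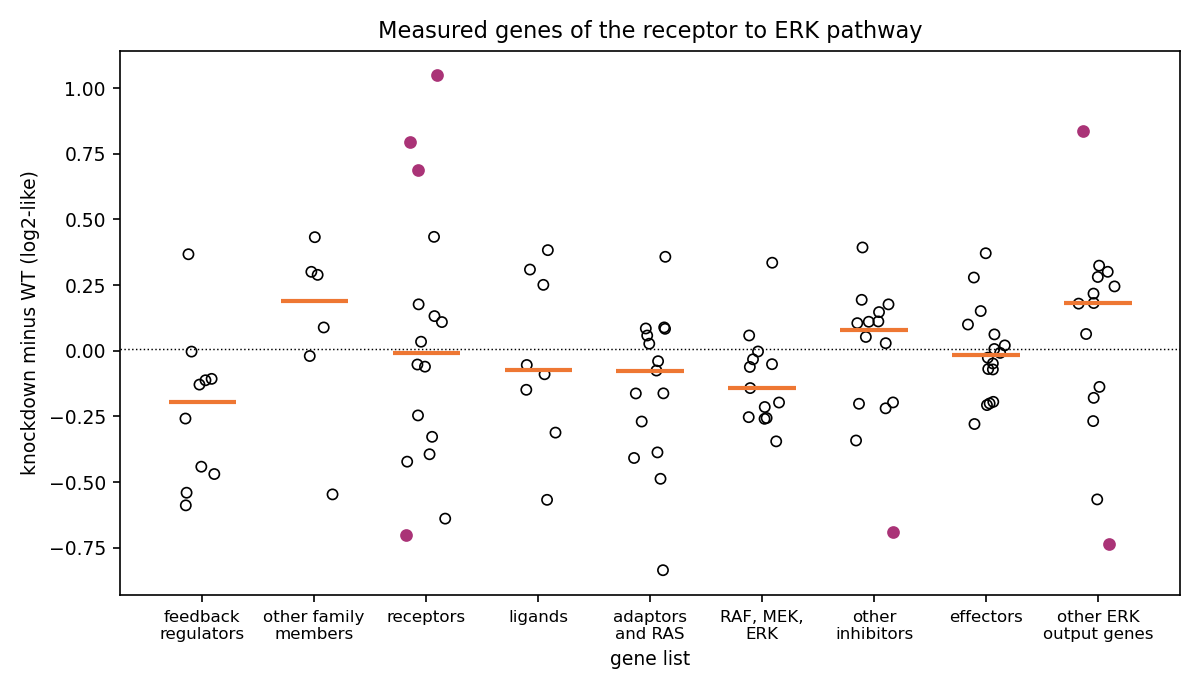
Knockdown minus WT on the deposited log2-like scale for each tested gene of the feedback regulators and of 8 further pathway lists. Filled points passed at an adjusted p under 0.05, orange bars are list medians and the dotted line is the median of all tested genes. The feedback regulators hold no filled point and have a median of −0.19.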

How the data were processed

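RNA sequencing of 6 D283 Med libraries was analysed. Per the submitters' processing notes, the authors' tools included STAR, DESeq, Trim Galore, CASAVA 1.8.2, MultiQC and FastQC, and the build was GRCh38. How reads were counted, with which annotation and strand setting, is not given in these sources. The deposited table holds log2-like values, scaled by a size factor per library and variance-stabilised, as its name and values show. Its lowest value, 5.79, stands for a count of 0. Inverting the function with the offset 55.2 gave normalised reads, and 100% of values were whole reads within 0.01 after multiplication by 1 factor per library.

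A gene was tested if its mean over 6 libraries exceeded the lowest value by 1 or more (27.6 normalised reads). Groups were compared with limma 3.58.1 under R 4.3.3 (two-sided, trended empirical Bayes variances, no covariates), with Benjamini-Hochberg adjustment over 13558 rows at 0.05. This fit was also tested on simulated data, and the outcome of that run is not given here. Differences are knockdown minus WT. Folds are ratios of mean normalised reads. With 3 libraries a group, the smallest p of an exact permutation test is 0.1.

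Members, gene lists and naming rule were chosen with earlier results of these data known. The rule named all members, MSI1, the tested relatives, FGFR1 to FGFR4, and in each list the genes that passed or, where fewer than 3 did, the 3 largest differences. Of 133 other pathway genes 127 were in the table and 102 were tested. Exon lengths and coordinates are GENCODE 29 on GRCh38, matched by symbol (30040 of 31785 rows), and promoter windows are RefSeq, GRCh38.p14. Figures were drawn with matplotlib 3.10.9. One list of cell type markers is not reported here.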

Additional observations from a re-analysis of the deposited data

How the results depend on the processing

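Over 17 alternatives (other filters, quantile normalisation, median centring, other variance models, library weights, the replicate block, limma voom on recovered reads, other pseudocounts, and each library left out), no member passed in 16. Without VV1 there were 2, so the range was 0 to 2 when libraries were left out. The count over all genes was 556. It was 1213 with library weights, 221 with the replicate block, and 56 to 726 with a library left out. The 7 calls among other pathway genes became 14 with library weights and 1 to 9 with a library left out. The differences of DUSP4, DUSP6, SPRY1, SPRY2, SPRED1, SPRED2 and ETV5 kept their direction in every alternative run for them. DUSP6 was below the filter of 2 above the lowest value and has no result there. DUSP5 turned to 0.03 without VV2, 0.10 without VV3 and 0.19 without KD3, and its lowest value with a library left out was −0.16. SPRY4 turned to 0.29 without VV3, against a lowest of −0.37. ETV4 turned to 0.043 with library weights and 0.24 without VV3, against a lowest of −0.39. No member differed in its call under the replicate block, while EGFR and FOS missed the threshold there (limma adjusted p = 0.0613 and 0.0669). Libraries with the same number did not deviate together (r = −0.0045, −0.25 and 0.0046 across genes), and no library correlated best with its own number, so the numbers were not treated as pairs. Of 153 list medians under alternatives, 145 moved by less than the spread between libraries. The cause of these shifts was not tested. Depth limits DUSP6, with 22 to 163 reads per library.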
